A study of Mus musculus with 11 samples.

Results

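Cytochrome P450 enzymes of families 1 to 4 are the haem enzymes of the liver that oxidise drugs, steroids, bile acids and fatty acids. Their genes were taken as every symbol on the array that begins with Cyp, a family number from 1 to 4, a subfamily letter and a gene number. This gave 55 symbols. A gene was kept where a probe had a detection p-value under 0.05 on at least 3 of the 11 arrays, and its brightest such probe stood for it. That left 38 P450 genes in 15 subfamilies, among 12512 genes measured in all. Neither the filter nor the choice of probe used a difference between groups. The gene set itself was chosen with earlier results of these data known.

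The samples were livers of 11 female mice of the C57Bl/6 background. Their total RNA was hybridised to Illumina BeadChips, on which beads carry gene probes and the brightness of a bead reports transcript abundance. Treated mice had received 0.5 mg of 5'-adenosine monophosphate (5'-AMP) per g of body weight. Of these, 4 were killed after 6 h (the labels' AIHM) and 4 after 12 h (the labels' RF, or Rev Flip, which the labels do not spell out). The 3 controls received vehicle, at a time of death the labels do not give. Sex and genetic background were common to all 3 groups, and whether the groups were killed at the same hour of day is not known. Each array held 1 numbered animal.

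P450 enzymes sit mostly in the endoplasmic reticulum and take their electrons from cytochrome P450 reductase. Families 1 to 3 are best known for clearing foreign compounds, and family 4 for hydroxylating fatty acids and eicosanoids. In liver, their transcription is driven by ligand-activated receptors: the aryl hydrocarbon receptor for Cyp1 genes, the receptors CAR and PXR for Cyp2b, Cyp2c and Cyp3a genes, and PPAR-alpha for Cyp4a genes. Clock-controlled PAR bZIP factors and the sex-dependent rhythm of growth hormone set further layers, and many members are zoned along the liver lobule.

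Several P450 genes arose by tandem duplication, and some copies have nearly identical promoters, which are shown here. Probe and transcript sequences were not compared, so whether the array separates such copies is not known. A promoter entry in RefSeq (GRCm38.p6) was matched for 31 of the 38 members. Within subfamilies, the closest pairs were Cyp2b13 with Cyp2b9 (298 of 300 bases identical, 99.3%) and Cyp2a4 with Cyp2a5 (294 of 299 aligned bases, 98.3%, after a shift of 1 base), ahead of Cyp2d10 with Cyp2d9 (74.7%). The 250 bases before the annotated start follow for both closest pairs, all on the plus strand, with the bases that differ within a pair in capitals. They lie at chr7:26061245-26061494 for Cyp2b13, chr7:26173159-26173408 for Cyp2b9, chr7:26306942-26307191 for Cyp2a4 and chr7:26835089-26835338 for Cyp2a5.
Cyp2b13: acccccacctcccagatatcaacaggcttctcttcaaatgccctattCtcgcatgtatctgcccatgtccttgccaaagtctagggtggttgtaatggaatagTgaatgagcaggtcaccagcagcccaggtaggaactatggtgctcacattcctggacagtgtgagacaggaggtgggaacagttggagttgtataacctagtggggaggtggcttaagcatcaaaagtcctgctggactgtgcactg
Cyp2b9: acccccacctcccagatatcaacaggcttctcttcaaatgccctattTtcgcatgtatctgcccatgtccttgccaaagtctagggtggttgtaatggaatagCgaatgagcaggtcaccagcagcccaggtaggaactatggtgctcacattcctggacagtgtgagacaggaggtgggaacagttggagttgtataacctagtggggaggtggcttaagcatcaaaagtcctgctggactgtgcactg
Cyp2a4: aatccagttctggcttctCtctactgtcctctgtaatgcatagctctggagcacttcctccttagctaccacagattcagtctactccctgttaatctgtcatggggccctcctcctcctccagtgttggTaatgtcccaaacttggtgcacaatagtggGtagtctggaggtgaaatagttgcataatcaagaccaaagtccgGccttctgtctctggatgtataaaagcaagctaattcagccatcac
Cyp2a5: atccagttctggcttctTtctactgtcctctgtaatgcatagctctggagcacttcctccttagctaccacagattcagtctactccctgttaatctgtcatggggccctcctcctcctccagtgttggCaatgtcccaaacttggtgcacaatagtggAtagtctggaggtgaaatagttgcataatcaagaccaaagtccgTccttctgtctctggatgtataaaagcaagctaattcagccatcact

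In the same promoter windows, from 250 bases before to 50 after the start, 2 motifs were searched on both strands. The letters TAGGTCA are bound by ROR and REV-ERB receptors, and TTANGTAA by PAR bZIP factors and their repressor Nfil3. TAGGTCA occurred in 1 of 31 member promoters, against 2.64% of 27025 promoters, and TTANGTAA also in 1 of 31, against 2.34%. The member with TAGGTCA was Cyp3a11, where it began 163 bases before the start, and the member with TTANGTAA was Cyp2c38, where its reverse complement began 84 bases before the start. The stretches around them are both on the minus strand, at chr5:145879974-145880053 and chr19:39463116-39463195, with the match in capitals. A match of letters is a description and does not show binding.
Cyp3a11: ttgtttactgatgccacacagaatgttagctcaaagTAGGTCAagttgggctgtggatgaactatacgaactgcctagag
Cyp2c38: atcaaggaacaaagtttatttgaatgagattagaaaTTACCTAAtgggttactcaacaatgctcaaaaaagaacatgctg

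Across the arrays, 15131 to 15903 probes were detected and the mean raw signal ran from 412 to 635. The hepatocyte markers, of which 8 were measured, had a summed normalised intensity of 123000 to 155000 at 6 h, 144000 to 151000 at 12 h and 136000 to 146000 in the controls. None of the 8 was called in any comparison. As a check of the label female, Xist was detected on all 11 arrays and the Y-linked Eif2s3y and Jarid1d on none. Probes named for the Y-linked Ddx3y and Uty were detected on 11 and 9 arrays, with no array standing apart as male by all of these genes. Of the erythroid markers 5 were measured, with sums of 56300 to 70800 at 6 h, 50600 to 61600 at 12 h and 26400 to 51400 in the controls. The 8 measured Kupffer cell markers summed to 3330 to 8030 at 6 h, 3030 to 4700 at 12 h and 5040 to 7320 in the controls. The 2 measured neutrophil markers summed to 164 to 542 at 6 h, 150 to 326 at 12 h and 70.2 to 125 in the controls, and of these S100a8 rose by 2.01 at 6 h (adjusted p = 0.0409) and by 1.70 at 12 h (adjusted p = 0.0445) on the log2 scale. The stellate cell marker Lrat fell by 1.07 at 12 h (adjusted p = 0.0309), and Reln fell by 0.62 at 12 h against 6 h (adjusted p = 0.0308). The part of these other cell types in the P450 results was not tested. In such bulk RNA, fewer cells of a type and less RNA per cell cannot be told apart.

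No P450 gene of families 1 to 4 passed the test at either time. In the limma fit over all 12512 genes, with Benjamini-Hochberg adjustment and a threshold of 0.05, 0 of 38 members were called at 6 h against control, where 1.13% of all genes were. The count was also 0 of 38 at 12 h, against 3.23% of all genes, and 0 of 38 for 12 h against 6 h, against 1.22%. At an unadjusted p under 0.05, 7 members stood out at 6 h (18.4%, against 16.7% of all genes), 1 at 12 h (2.63%, against 17.7%) and 5 between the times (13.2%, against 15.5%). The smallest adjusted p-values were 0.165 for Cyp2b9 at 6 h, 0.209 for Cyp2c54 at 12 h and 0.164 for Cyp4f13 between the times.

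The differences were mostly small. The log2 fold changes of the 38 members ran from -0.94 to 0.49 at 6 h and from -0.41 to 0.57 at 12 h, with a median of 0.12 at both times. The median of all genes was -0.02 at 6 h and -0.04 at 12 h. Values lay above 0 for 26 members at 6 h (68.4%, against 47.4% of all genes) and for 27 at 12 h (71.1%, against 43.6%). With arrays centred on their medians in place of quantile normalisation, 30 members lay above 0 at 6 h and 20 at 12 h, while the median of all genes moved to 0.12 and -0.11. Both comparisons use the same 3 controls. Between the times, 12 h against 6 h, the member median was 0.01 and 21 members lay above 0 (55.3%, against 47.8%).

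A missed threshold does not show that levels were equal, so the 95% intervals of the differences are the firmer statement. They lay wholly within a 2-fold change either way for 33 members at 6 h, for 31 members at 12 h and for 34 members in the comparison of 12 h with 6 h. They lay within a 1.5-fold change either way for 17, 22 and 21 members. Of all 12512 genes, 11397, 11112 and 11705 had intervals within a 2-fold change, each a larger share than among the members. Within a 1.5-fold change, 6684, 6612 and 7777 did, a smaller share than among the members only at 12 h. The members with the widest intervals were those that varied most between animals of one group, which are described further on.

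**Figure D1:**
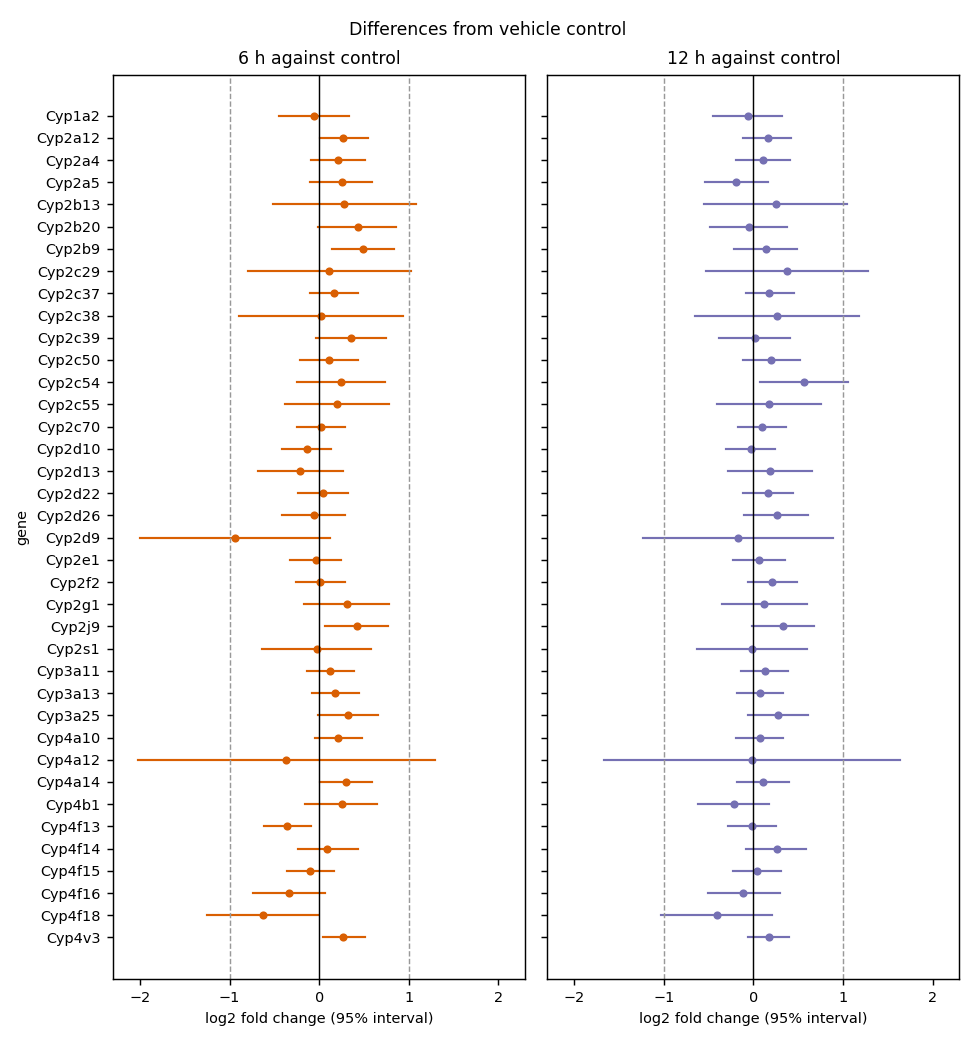
Log2 fold change of each of the 38 P450 genes with its 95% interval from the limma fit, at 6 h (left panel) and 12 h (right panel) after 5'-AMP against vehicle control. Dashed lines mark a 2-fold change. All points lie between -0.94 and 0.57, and Cyp4a12 and Cyp2d9 have wide intervals.

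Among members of the Cyp1a and Cyp2a subfamilies, Cyp1a2, an aryl hydrocarbon receptor target that oxidises caffeine, had the values 14.03, 14.19, 14.01 and 13.71 at 6 h, 14.08, 13.78, 14.37 and 13.68 at 12 h and 13.96, 13.93 and 14.25 in the controls, on the log2 scale of normalised intensity. The groups overlapped, and the differences were -0.06 ± 0.18 (adjusted p = 0.909) at 6 h and -0.06 ± 0.18 (adjusted p = 0.896) at 12 h. Here and below a difference is a log2 fold change with its standard error from the limma fit (4, 4 and 3 arrays). The 3 measured Cyp2a genes had differences of 0.21 to 0.27 at 6 h and -0.19 to 0.16 at 12 h. Cyp2a5, the coumarin 7-hydroxylase, had 13.90, 14.17, 14.22 and 14.32 at 6 h, 13.53, 13.85, 13.90 and 13.58 at 12 h and 14.17, 13.64 and 13.90 in the controls. The 6 h arrays were mostly above the 12 h arrays, with a value of 13.90 in each group, and the difference of 12 h against 6 h was -0.44 ± 0.15 (adjusted p = 0.177). Cyp2a5 had 4 kept probes, and at 12 h against control they gave -0.43 to 0.28, the widest disagreement among the 13 members with more than 1 kept probe.

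The Cyp2b subfamily includes the phenobarbital-responsive gene Cyp2b10. All 3 measured members had positive differences at 6 h, also with median centring, the authors' values and brightness as a covariate. Without control 2, Cyp2b13 lay below 0 and 2 of 3 were positive. Cyp2b9, a CAR target with higher expression in female mouse liver, had 13.79, 13.61, 14.10 and 13.44 at 6 h, 13.40, 13.40, 13.46 and 13.27 at 12 h and 13.40, 13.01 and 13.32 in the controls. Every 6 h array exceeded every control, though 6 h array 4 and control 1 differed by little, and the 12 h arrays overlapped the controls. The difference at 6 h was 0.49 ± 0.16 (adjusted p = 0.165), with an interval of 0.14 to 0.84, and that at 12 h was 0.14 ± 0.16 (adjusted p = 0.702). Arrays were run on 5 chips per the column names, and within the 3 chips that held both groups Cyp2b9 differed by 0.03, 1.09 and 0.38 at 6 h. With the mean raw signal of the array as a covariate Cyp2b9 passed the threshold at 6 h (0.61, adjusted p = 0.0299). That setting called 585 of all 12512 genes at 6 h.

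Cyp2b20, which RefSeq lists as a synonym of the main phenobarbital-responsive gene Cyp2b10, had 11.27, 11.58, 11.89 and 11.47 at 6 h, 11.10, 10.68, 11.37 and 11.15 at 12 h and 11.19, 10.80 and 11.39 in the controls. The groups overlapped, and the differences were 0.43 ± 0.20 (adjusted p = 0.307) at 6 h, -0.05 ± 0.20 (adjusted p = 0.93) at 12 h and -0.48 ± 0.18 (adjusted p = 0.236) for 12 h against 6 h. The probe named Cyp2b10 itself was detected on 1 array and was not kept. Cyp2b13, with a promoter nearly identical to that of Cyp2b9, gave 0.28 ± 0.37 (adjusted p = 0.751) at 6 h. At 12 h it gave 0.25 ± 0.37 (adjusted p = 0.783). Without control 2 these became -0.18 (adjusted p = 0.847) at 6 h and -0.21 (adjusted p = 0.795) at 12 h. With median centring Cyp2b9, Cyp2b20 and also Cyp4b1 passed for 12 h against 6 h, lower at 12 h, while the median of all genes moved to -0.21. In that setting 851 of all 12512 genes passed.

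**Figure D2:**
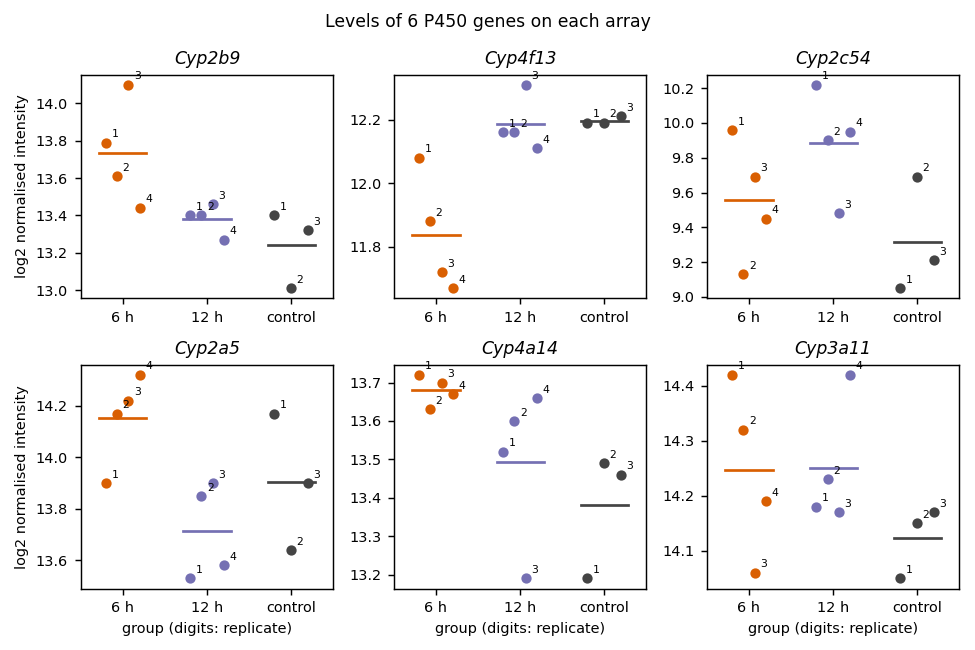
Log2 normalised intensity of Cyp2b9, Cyp4f13, Cyp2c54, Cyp2a5, Cyp4a14 and Cyp3a11 on each array, with digits for the replicate and a line for the group mean. Vertical scales differ between genes. The Cyp4f13 arrays at 6 h (11.67 to 12.08) lie below all 12 h arrays and controls, and no gene shown passed the threshold.

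The Cyp2c genes encode enzymes that oxidise arachidonic acid, steroids and drugs. All 8 kept members had differences above 0 at both times, with a median of 0.14 at 6 h and 0.19 at 12 h. Under other scalings the count was 7 or 8 at both times, except for 5 at 6 h with array brightness as a covariate. The count rested on single arrays, most of all on control 3. Without it 4 of the 8 lay below 0 at 6 h (Cyp2c29 at -0.33, Cyp2c38 at -0.43, Cyp2c55 at -0.05 and Cyp2c70 at -0.02), and 3 did at 12 h (Cyp2c29, Cyp2c38 and Cyp2c55). None was called. Cyp2c54 had the largest difference of any member at 12 h and the values 9.96, 9.13, 9.69 and 9.45 at 6 h, 10.22, 9.90, 9.48 and 9.95 at 12 h and 9.05, 9.69 and 9.21 in the controls. The 12 h arrays overlapped the controls at 9.48 to 9.69, and the difference was 0.57 ± 0.23 (adjusted p = 0.209) with an interval of 0.08 to 1.06. Within the 2 chips that held both groups it was 0.90 and 0.21. Cyp2c37, a CAR target, had 14.49, 14.25, 14.59 and 14.68 at 6 h, 14.53, 14.49, 14.45 and 14.59 at 12 h and 14.41, 14.31 and 14.28 in the controls. Its 12 h arrays lay above all controls by a small margin, with a difference of 0.18 ± 0.12 (adjusted p = 0.462).

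Among the remaining Cyp2c genes, Cyp2c70, which makes muricholic acids in mouse, had 14.72, 14.75, 14.79 and 14.59 at 6 h, 14.63, 15.03, 14.79 and 14.70 at 12 h and 14.67, 14.79 and 14.61 in the controls. Its groups overlapped, with differences of 0.02 ± 0.12 (adjusted p = 0.961) at 6 h and 0.10 ± 0.12 (adjusted p = 0.742) at 12 h. The other 5 members, Cyp2c29, Cyp2c38, Cyp2c39, Cyp2c50 and Cyp2c55, had differences of 0.02 to 0.36 at 6 h and 0.02 to 0.38 at 12 h. Cyp2c29 gave 0.38 ± 0.42 at 12 h and Cyp2c38 gave 0.26 ± 0.42, errors as large as the differences or larger. The probe of Cyp2c38 was detected on 3 of 4 arrays at 6 h, 2 of 4 at 12 h and 2 of 3 controls.

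The Cyp2d genes, relatives of the human debrisoquine hydroxylase, had mixed values. At 6 h 4 of 5 members lay below control (3 of 5 with median centring), with a median of -0.14. Leaving out control 2 or 6 h array 2 gave 3 of 5, and leaving out control 3 gave 5 of 5. Cyp2d26 counted as below with -0.06, while its other kept probes gave 0.20 and 0.17. All 5 had positive differences at 12 h against 6 h, with a median of 0.32, but 3 of 5 did with median centring. No member was called. Cyp2d10 had 14.16, 14.56, 14.24 and 14.14 at 6 h, 14.40, 14.32, 14.42 and 14.41 at 12 h and 14.33, 14.42 and 14.51 in the controls, groups that overlapped. Its differences were -0.14 ± 0.12 (adjusted p = 0.612) at 6 h and -0.03 ± 0.12 (adjusted p = 0.931) at 12 h. Cyp2d13 had a difference of 0.40 ± 0.20 (adjusted p = 0.36) for 12 h against 6 h, while Cyp2d22 and Cyp2d26 had 0.12 and 0.32.

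Cyp2d9, a steroid 16-alpha-hydroxylase with higher expression in male mouse liver, had the largest difference of any member at 6 h. Its values were 11.24, 13.01, 10.87 and 11.74 at 6 h, 12.59, 12.28, 11.99 and 13.04 at 12 h and 12.11, 13.67 and 12.17 in the controls. Arrays 1, 3 and 4 at 6 h lay below all controls, array 2 did not, and control 2 was above the other two controls. The difference was -0.94 ± 0.49 (adjusted p = 0.359) at 6 h with an interval of -2.0 to 0.12, -0.17 ± 0.49 (adjusted p = 0.897) at 12 h and 0.76 ± 0.45 (adjusted p = 0.453) for 12 h against 6 h. Without control 2 the 6 h difference was -0.43 (adjusted p = 0.724), and without 6 h array 2 it was -1.37 (adjusted p = 0.115). With array brightness as a covariate Cyp2d9 passed at 6 h (-1.40, adjusted p = 0.0335) and for 12 h against 6 h (1.62, adjusted p = 0.0448). That setting called 585 and 166 of all 12512 genes in these comparisons.

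Of the single-member Cyp2 subfamilies, Cyp2e1, the pericentral ethanol and acetaminophen oxidase, had 15.31, 14.91, 15.31 and 15.37 at 6 h, 15.38, 15.27, 15.23 and 15.42 at 12 h and 15.21, 15.37 and 15.22 in the controls. All groups overlapped, and the differences were -0.04 ± 0.13 (adjusted p = 0.91) at 6 h and 0.06 ± 0.13 (adjusted p = 0.866) at 12 h. Its raw signal of 35113 to 48419 was near the highest signal on the arrays, 45867 to 53546. Cyp2f2, a naphthalene oxidase of periportal hepatocytes, had 14.10, 14.16, 14.19 and 13.85 at 6 h, 14.31, 14.25, 14.35 and 14.20 at 12 h and 14.03, 14.24 and 13.92 in the controls. The 12 h arrays lay above all 6 h arrays but overlapped the controls, with a difference from 6 h of 0.20 ± 0.12 (adjusted p = 0.444). Cyp2j9, of the arachidonic acid epoxygenase subfamily, had 7.65, 7.84, 7.99 and 7.67 at 6 h, 7.56, 7.53, 7.72 and 7.99 at 12 h and 7.46, 7.58 and 7.07 in the controls. Every 6 h array exceeded every control, and the difference was 0.42 ± 0.16 (adjusted p = 0.223) at 6 h and 0.33 ± 0.16 (adjusted p = 0.308) at 12 h. Cyp2g1, known from olfactory epithelium, and Cyp2s1 gave 0.31 and -0.03 at 6 h and 0.12 and -0.02 at 12 h. A dimmer kept probe of Cyp2g1 gave larger differences, 0.64 ± 0.21 at 6 h and 0.61 ± 0.21 at 12 h, in a fit of all kept probes.

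The Cyp3a genes encode the main steroid and drug hydroxylases. Cyp3a11, the principal PXR target of mouse liver and the member with TAGGTCA in its promoter, had 14.42, 14.32, 14.06 and 14.19 at 6 h, 14.18, 14.23, 14.17 and 14.42 at 12 h and 14.05, 14.15 and 14.17 in the controls. The groups overlapped, and the differences were 0.12 ± 0.12 (adjusted p = 0.66) at 6 h and 0.13 ± 0.12 (adjusted p = 0.638) at 12 h. The interval at 6 h, -0.14 to 0.39, lay within a 1.5-fold change. Cyp3a25 had 12.56, 12.73, 12.96 and 12.28 at 6 h, 12.52, 12.70, 12.42 and 12.69 at 12 h and 12.32, 12.31 and 12.29 in the controls. Every 12 h array exceeded every control, and one 6 h array did not, with differences of 0.32 ± 0.15 (adjusted p = 0.311) at 6 h and 0.27 ± 0.15 (adjusted p = 0.376) at 12 h. A dimmer kept probe of Cyp3a25 gave -0.24 ± 0.44 at 6 h and 0.04 ± 0.44 at 12 h, in a fit of all kept probes. Cyp3a13 gave 0.18 at 6 h and 0.08 at 12 h. Its dimmer kept probes gave 0.41 and 0.25 at 6 h and 0.23 and 0.50 at 12 h.

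The Cyp4a genes encode fatty acid omega-hydroxylases and are standard PPAR-alpha targets. Cyp4a10 had 15.17, 15.01, 15.17 and 15.31 at 6 h, 14.98, 15.06, 14.96 and 15.08 at 12 h and 14.92, 15.14 and 14.79 in the controls, with overlap between groups and differences of 0.21 ± 0.12 (adjusted p = 0.395) at 6 h and 0.07 ± 0.12 (adjusted p = 0.821) at 12 h. Cyp4a14 had 13.72, 13.63, 13.70 and 13.67 at 6 h, 13.52, 13.60, 13.19 and 13.66 at 12 h and 13.19, 13.49 and 13.46 in the controls. The 6 h arrays sat together and above all controls, and 12 h array 3 equalled the lowest control. The differences were 0.30 ± 0.13 (adjusted p = 0.286) at 6 h and 0.11 ± 0.13 (adjusted p = 0.725) at 12 h. Cyp4b1, a fatty acid oxidase best known from lung, had -0.47 ± 0.17 (adjusted p = 0.215) for 12 h against 6 h and -0.22 ± 0.19 (adjusted p = 0.577) against control.

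The Cyp4f genes encode hydroxylases of leukotriene B4 and related eicosanoids, and all 5 had positive differences at 12 h against 6 h (median 0.22), but 3 of 5 did with median centring and 4 of 5 with brightness as a covariate. The dimmer kept probes of Cyp4f18 and Cyp4f16 gave -0.16 and 0.02 for 12 h against 6 h. At 6 h 4 of 5 lay below control (3 of 5 with median centring). Cyp4f13 had 12.08, 11.88, 11.72 and 11.67 at 6 h, 12.16, 12.16, 12.31 and 12.11 at 12 h and 12.19, 12.19 and 12.21 in the controls. Every 6 h array lay below every control and every 12 h array, and the 3 controls lay close together. The difference was -0.36 ± 0.12 (adjusted p = 0.186) at 6 h with an interval of -0.62 to -0.09, -0.01 ± 0.12 (adjusted p = 0.975) at 12 h and 0.35 ± 0.11 (adjusted p = 0.164) for 12 h against 6 h. Within the 3 chips that held both groups it was -0.51, -0.47 and -0.23 at 6 h.

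Cyp4f14, a leukotriene hydroxylase of mouse liver, had 14.24, 13.74, 13.95 and 13.56 at 6 h, 13.98, 14.07, 14.15 and 13.93 at 12 h and 13.86, 13.66 and 13.82 in the controls. Every 12 h array exceeded every control, with a difference of 0.26 ± 0.15 (adjusted p = 0.414). Cyp4f18, which hydroxylates leukotriene B4 in mouse neutrophils, had 5.95, 6.38, 5.47 and 6.26 at 6 h, 5.60, 6.55, 6.46 and 6.32 at 12 h and 6.19, 6.59 and 7.15 in the controls. The groups overlapped, and the differences were -0.63 ± 0.28 (adjusted p = 0.291) at 6 h and -0.41 ± 0.28 (adjusted p = 0.484) at 12 h. Its raw signal was low, 110 to 181, while P450 probes not kept reached 134.1. Cyp4f15 and Cyp4f16 gave -0.10 and -0.34 at 6 h and 0.04 and -0.11 at 12 h. Cyp4v3, a fatty acid hydroxylase whose human counterpart is altered in a corneoretinal dystrophy, had 12.60, 12.75, 12.55 and 12.69 at 6 h, 12.64, 12.52, 12.58 and 12.45 at 12 h and 12.44, 12.29 and 12.40 in the controls. Every treated array exceeded every control, though 12 h array 4 (12.45) and control 1 (12.44), on the same chip, differed by little. The differences were 0.27 ± 0.11 (adjusted p = 0.233) at 6 h and 0.17 ± 0.11 (adjusted p = 0.437) at 12 h, and within chips 0.26, 0.26 and 0.28 at 6 h.

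Counted over all members, 5 had every 6 h array above every control (Cyp2a12, Cyp2b9, Cyp2j9, Cyp4a14 and Cyp4v3), or 13.2% of 38 against 6.84% of all genes. Cyp4f13 was the only member with every 6 h array below, 2.63% against 7.04% of all genes. At 12 h 4 members lay wholly above the controls (Cyp2c37, Cyp3a25, Cyp4f14 and Cyp4v3), 10.5% against 9.02%, and none lay wholly below, against 11.7%. Cyp2f2 and Cyp4f13 had every 12 h array above every 6 h array, 5.26% against 3.48% of all genes, and none lay wholly below, against 6.33%.

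**Figure D3:**
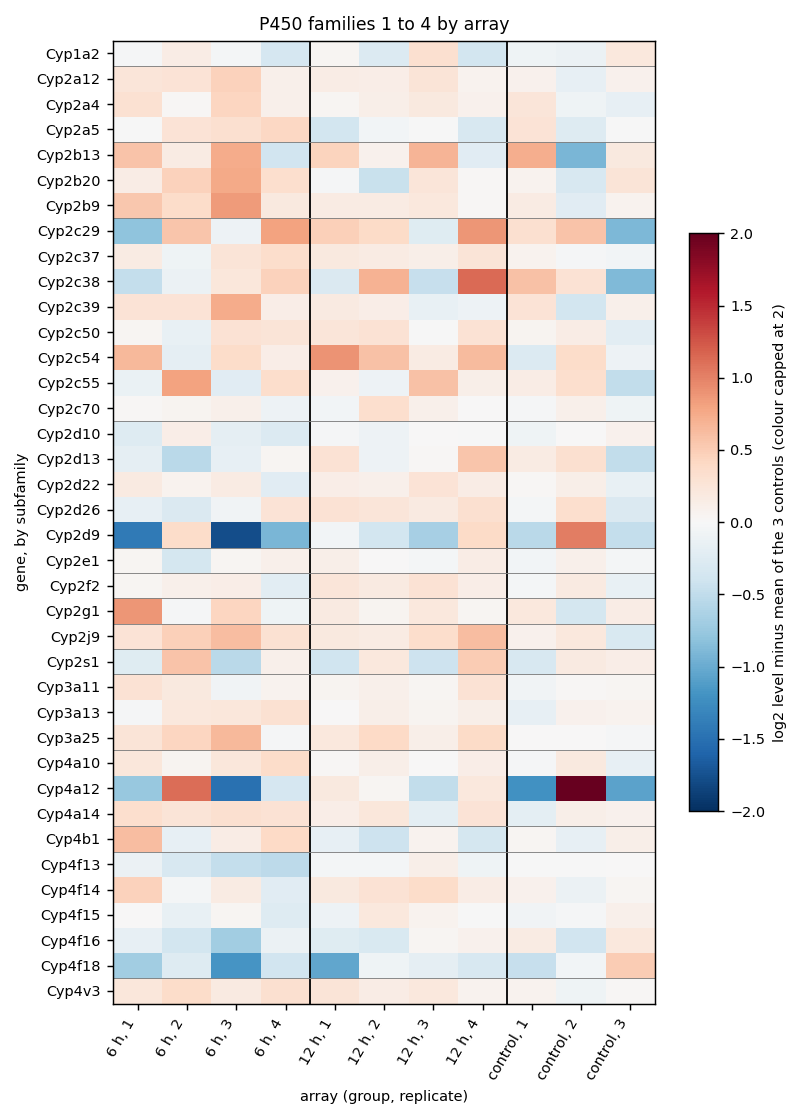
Level of each P450 gene on each array as the log2 difference from the mean of the 3 controls, with genes in rows by subfamily and arrays in columns by group. Red is above and blue below the control mean, and colour is capped at 2. Most cells are pale, while Cyp2d9 and Cyp4a12 reach their deepest blue at 6 h array 3 and their deepest red at control 2.

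Some members varied widely between animals of one group. This spread was measured by the pooled within-group standard deviation, whose median was 0.21 for members and 0.23 for all genes. Of the 38 members, 5 exceeded the 95th percentile of all genes, 0.50. They were Cyp4a12 (1.22, percentile 99.9), Cyp2d9 (0.77, 99.4), Cyp2c38 (0.66, 98.7), Cyp2c29 (0.66, 98.6) and Cyp2b13 (0.57, 97.1). At the other end Cyp4v3 had 0.08, percentile 1.57.

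Cyp4a12, a renal and hepatic fatty acid hydroxylase with higher expression in male mice, had 5.63, 7.51, 4.89 and 6.05 at 6 h, 6.58, 6.42, 5.89 and 6.60 at 12 h and 5.17, 8.68 and 5.31 in the controls. Its probe was detected on 3 of 4 arrays at 6 h, 4 of 4 at 12 h and 1 of 3 controls. Its levels at control 2 and at 6 h array 3 were the extremes, and the difference at 6 h, -0.37 ± 0.76, became 0.78 without control 2 (adjusted p = 0.529). Cyp2b13, with higher expression in females, had 13.58, 13.18, 13.75 and 12.63 at 6 h, 13.46, 13.10, 13.69 and 12.78 at 12 h and 13.73, 12.10 and 13.20 in the controls. Control 2 was the lowest array of all.

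The same animals were extreme for the 2 male-biased genes. Cyp2d9 and Cyp4a12 were both highest of their groups in 6 h array 2, 12 h array 4 and control 2, and both lowest in 6 h array 3, 12 h array 3 and control 1. Of the 4 measured female-biased genes, not counting Cyp2b20 (Cyp2b10), Cyp2b13 and Cyp2b9 had their extremes in largely the opposite places. Both were highest in 6 h array 3, 12 h array 3 and control 1, and lowest in 6 h array 4, 12 h array 4 and control 2. Cyp2a4 was also highest in 6 h array 3, 12 h array 3 and control 1, but lowest in 6 h array 2, 12 h array 1 and control 3. Cyp4a14 did not share this order, with its highest levels in 6 h array 1, 12 h array 4 and control 2. The 6 h array 3 and control 2 were on the same chip. These are patterns over 11 animals noticed after the values were seen, and no test was made of them.

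**Figure D4:**
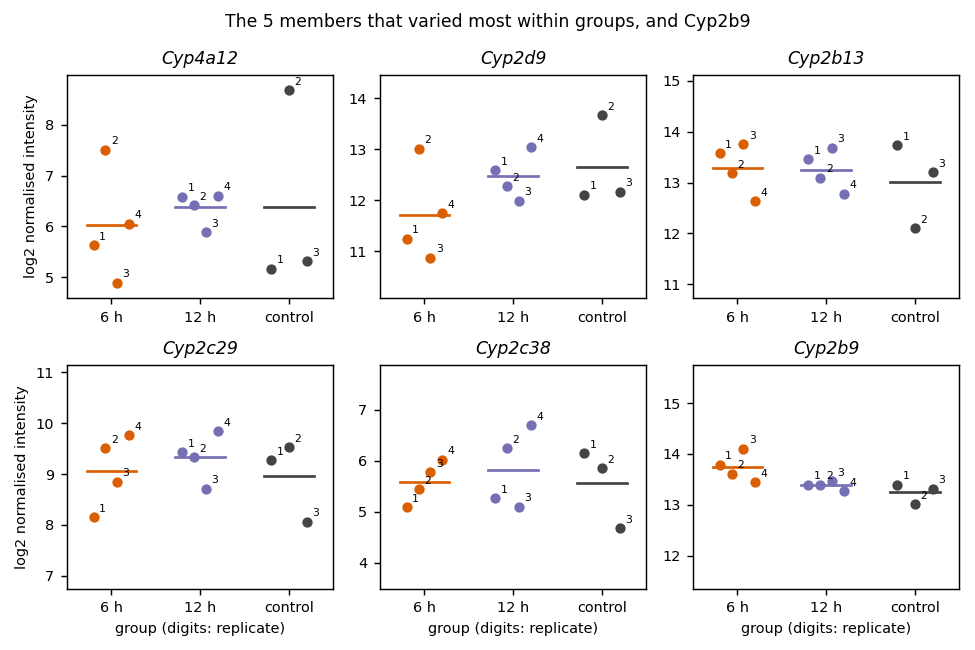
Log2 normalised intensity on each array of the 5 members that varied most within groups and of Cyp2b9, all on axes that span the same height in log2 units. Digits mark the replicate and lines the group mean. Control 2 is the highest control for Cyp4a12 (8.68) and Cyp2d9 (13.67) and the lowest for Cyp2b13 (12.10) and Cyp2b9 (13.01).

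Upstream and partner genes were read from lists of textbook members. Of 17 xenobiotic receptors and partners, 14 were measured and 0 were called in any comparison. Ahr, the receptor for dioxins and planar aromatics, was detected on no array. The PXR gene Nr1i2 had -0.37 ± 0.12 (adjusted p = 0.164) at 6 h, the CAR gene Nr1i3 -0.09 ± 0.15 and Ppara 0.30 ± 0.24. At 12 h Nr1i2 had -0.18 ± 0.12, Nr1i3 -0.16 ± 0.15, Ppara 0.34 ± 0.24 and Arnt, the partner of Ahr, 0.59 ± 0.17 (adjusted p = 0.101). Hnf4a, the liver-enriched nuclear receptor, had -0.15 ± 0.14 and 0.04 ± 0.14 at 6 h and 12 h.

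Of 5 electron donors measured of 10 listed, 0 were called. Por, which encodes P450 reductase, had -0.15 ± 0.15 at 6 h and -0.09 ± 0.15 at 12 h. Of 8 haem synthesis genes, 0 were called, and Alas1, the rate-limiting step, had 0.16 ± 0.32 at 6 h and -0.08 ± 0.32 at 12 h. Ferrochelatase (Fech) had 0.52 ± 0.13 at 12 h with an adjusted p of 0.0599. Of 19 P450 genes outside families 1 to 4, 12 were measured and 0 called. Cyp7a1, the first enzyme of bile acid synthesis, had -0.70 ± 0.29 at 12 h (adjusted p = 0.233) and -0.89 ± 0.27 for 12 h against 6 h (adjusted p = 0.135).

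Among these related genes, those called were transcriptional repressors tied to the circadian clock. Of 13 PAR bZIP and growth hormone signalling regulators, 10 were measured, 0 were called at 6 h and 2 were higher at 12 h. Nr1d1, which encodes the haem-binding repressor REV-ERB-alpha, had 8.07, 7.93, 8.42 and 6.70 at 6 h, 10.95, 10.33, 10.94 and 10.52 at 12 h and 6.12, 7.02 and 6.19 in the controls. No 12 h array came near a control, and the difference was 4.25 ± 0.36 at 12 h (adjusted p = 1.8e-05) and 1.34 ± 0.36 at 6 h (adjusted p = 0.104). Nfil3, a repressor that competes with PAR bZIP factors, had 12.06, 12.04, 12.38 and 11.84 at 6 h, 12.64, 12.72, 12.74 and 12.75 at 12 h and 11.64, 11.71 and 11.52 in the controls. Its groups did not overlap at 12 h, with a difference of 1.09 ± 0.13 (adjusted p = 0.000431). The PAR bZIP genes themselves were not called: Tef had -0.80 ± 0.26 at 12 h (adjusted p = 0.129), Dbp -0.16 ± 0.27, and Hlf was not detected on any array.

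**Figure D5:**
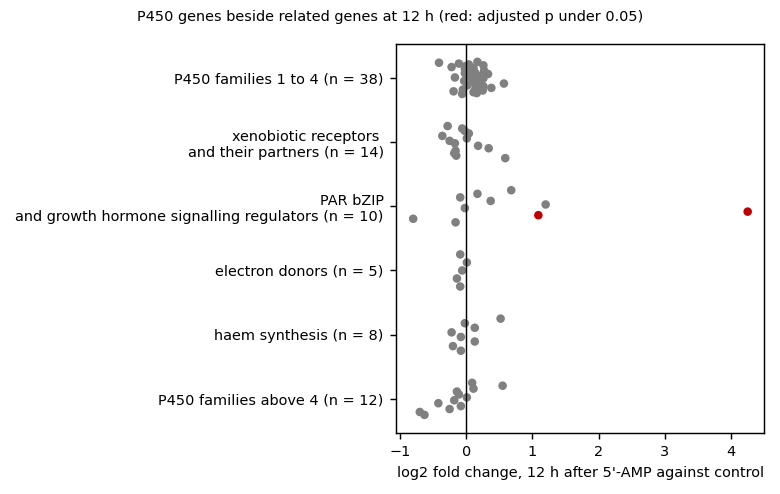
Log2 fold change at 12 h after 5'-AMP against control for each P450 gene of families 1 to 4 and for the genes of the related lists, 1 point per gene. Red points passed an adjusted p of 0.05, and only Nr1d1 (4.25) and Nfil3 (1.09) did. P450 genes lie between -0.41 and 0.57.

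The members were also grouped by their known regulation. The 9 measured CAR or PXR targets had a median of 0.20 at 6 h and 0.17 at 12 h, and the 2 measured PPAR-alpha targets 0.26 and 0.09. The 6 pericentral members had a median of 0.12 at 6 h and 0.09 at 12 h, beside 0.01 and 0.21 for the periportal Cyp2f2. The 4 measured female-biased members had a median of 0.29 at 6 h and 0.13 at 12 h, and the 2 male-biased members -0.65 and -0.09, with the spread described above. None of these members was called. The lists were matched by array symbol, so Cyp2b20, listed there as Cyp2b10, was left out. It belongs to the CAR or PXR group and to the female-biased group, and had 0.43 at 6 h and -0.05 at 12 h.

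The 17 members not kept included the aryl hydrocarbon receptor targets Cyp1a1 and Cyp1b1, the female-specific Cyp3a41 and Cyp3a44, and 4 Cyp2j genes. Of the 17, 13 were detected on no array. Cyp2u1 was detected on 2 arrays at most, just under the minimum, and Cyp2b10, Cyp2b19 and Cyp2c65 on 1. At the other side of the minimum, Cyp2c38 was detected on 7 arrays and Cyp2s1 and Cyp4a12 on 8. The other 35 kept members were detected on all 11 arrays.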

How the data were processed

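Liver total RNA of 11 mice was measured on 1 array each. The authors deposited, per the file headers, mean bead signals (linear intensity, not normalised) and a detection p-value for each of 45281 probes, exported with GenomeStudio per the submitters' processing notes (version not given in the sources used here). The authors also deposited a table of normalised intensity values, used as an alternative.

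Signals were background-corrected from the detection p-values, quantile-normalised and log2-transformed by the neqc function (offset 16) of limma 3.58.1, run in R 4.3.3 with statmod 1.5.0. The detection filter left 16978 probes, and each of 12512 symbols took its probe with the highest mean. Group means of all 11 arrays were estimated in a single limma fit (8 residual and 4.18 prior degrees of freedom), with two-sided moderated p-values adjusted by Benjamini-Hochberg over all genes per contrast. Single array positions within overlap counts had no test. Precision is limited by the number of arrays.

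The members, lists and tests were chosen with earlier results of these data known. Full statistics were for members past the threshold, the 6 largest differences per contrast and the brightest member of each subfamily. Of related lists, called genes, the smallest p otherwise, and Ahr, Nr1i2, Nr1i3, Ppara, Por, Alas1, Dbp, Tef, Hlf, Hnf4a and Cyp7a1 were named. Symbols were those of the array's files. Of the 55, 52 were current in RefSeq, 2 matched a synonym and 1 matched no single gene. Promoters came from RefSeq. Alternatives covered the background correction, the scaling, the authors' own values, the probe filter and summary, fits of 2 groups alone, array weights, the variance model, replicate number and chip as blocks, array brightness, and each array left out.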

Additional observations from a re-analysis of the deposited data

Results flagged for a closer look

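Of 102 groups of 4 arrays examined (each member at 6 h and at 12 h, and named regulators likewise), 2 held an array far from the other 3 by Dixon's ratio of gap to range, above the 95% critical value. Chance alone flags about 1 group in 20. Cyp2e1 had 14.91 on 6 h array 2, against 15.31 to 15.37 on the other 6 h arrays (ratio 0.87). Cyp2c50 had 14.21 on 12 h array 3, against 14.47 to 14.51 on the other 12 h arrays (ratio 0.867).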

How the results depend on the processing

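Each comparison was recomputed under 25 alternatives, 11 of them leaving out 1 array. The number of P450 members called was 0 in all of these settings for 12 h against control, and 0 in every setting that left out an array for all 3 comparisons. It differed in 3 cases. With array brightness as a covariate it was 2 at 6 h against control (Cyp2b9 and Cyp2d9) and 1 for 12 h against 6 h (Cyp2d9). Of all 12512 genes, 585 and 166 were called in these comparisons, where the main fit called 141 and 153. With median centring it was 3 for 12 h against 6 h, where 851 of all 12512 genes were called. All 3 were lower: Cyp2b9 (-0.56, adjusted p = 0.0274), Cyp4b1 (-0.69, adjusted p = 0.0288) and Cyp2b20 (-0.70, adjusted p = 0.0464). The median of all genes moved to -0.21 and that of the members to -0.12. The cause was not tested. With the chip as a fixed or random block, 0 members were called. The 12 h arrays 1 and 3 were each alone on a chip, so the fixed block took them out of the comparisons. It called 61 of all 12512 genes at 6 h, 132 at 12 h and 5 for 12 h against 6 h. A count of 0 members there therefore says little. The fixed block gave member medians of 0.18 and 0.12 against control and 0.05 for 12 h against 6 h.

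With the replicate number as a block, 0 members were called in each comparison. Same-numbered arrays did not deviate together throughout (correlations from -0.18 to 0.45), so the numbers were not taken to pair animals. No called value reversed its sign. Up to 10 uncalled members changed sign under a single setting other than leaving out an array, the most with median centring for 12 h against 6 h. Nr1d1 and Nfil3 were called at 12 h against control under all 25 alternatives. For 12 h against 6 h, Nfil3 lost its call in 12 settings and Nr1d1 in 1, the chip as a fixed block (adjusted p = 0.0988).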

Other observations

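Other transcripts known to differ between male and female mouse liver were read on the same arrays. They were chosen after the P450 values were seen and have no test. Sult2a2, a sulfotransferase with higher expression in females, had 10.02, 5.80, 12.19 and 7.23 at 6 h, 7.59, 6.55, 10.46 and 6.70 at 12 h and 9.60, 4.81 and 10.50 in the controls. The 6 h array 3 was the highest at 6 h and control 2 the lowest control, as for Cyp2b13. Hsd3b5, a steroid reductase with higher expression in males, had 9.99, 11.44, 8.68 and 10.15 at 6 h, 10.59, 10.23, 10.19 and 10.19 at 12 h and 10.11, 11.74 and 9.51 in the controls. The 6 h array 3 was the lowest at 6 h and control 2 the highest control, as for Cyp2d9. Elovl3, a fatty acid elongase with higher expression in males, had 7.13, 7.69, 7.19 and 6.41 at 6 h, 8.01, 7.57, 7.21 and 7.77 at 12 h and 6.87, 9.07 and 7.28 in the controls. It was highest at 6 h in array 2 and lowest in array 4, and highest among the controls in control 2. Levels of Sult2a2 ran from 4.81 to 10.50 within the controls alone.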
